A study of Caenorhabditis elegans with 6 samples.

Results

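The neuropeptide genes named flp and nlp were followed across 6 RNA-seq libraries of total RNA from Caenorhabditis elegans. They were the rows of the deposited table whose gene symbol was flp or nlp with a number, leaving out nlp-27 to nlp-34, whose products include antimicrobial peptides of the epidermis. This gave 78 genes, 31 flp and 47 nlp, of 46778 rows in all. A further 21 genes that the reference name table calls nlp stood in the deposited table under other names and were not members.

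The series compared 3 libraries from animals given JM03, which its title calls a derivative of crotamiton, with 3 from control animals. The labels give no genotype, strain, stage, age, dose or length of exposure, and leave unsaid if replicates came from separate cultures. The p-values thus reflect the spread of these samples alone, which may be technical. The title names OSM-9, a TRPV channel of sensory neurons, as the target of JM03, together with longer lifespan and resistance to oxidative and hypertonic stress. Values are TPM, the share of a library's transcripts that come from a gene, scaled to a fixed total and corrected for transcript length, so that levels can be set side by side between genes. This unit does not retain read depth, which is therefore unknown here.

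Neuropeptides are cut from precursor proteins inside dense core vesicles, trimmed and usually amidated, and then released to act on G protein-coupled receptors, often far from the releasing cell. The flp genes encode FMRFamide-like peptides, which end in arginine and an amidated phenylalanine. The nlp genes are a mixed class of other neuropeptide-like precursors. Most are transcribed in small sets of neurons, and some also in intestine, epidermis or gonad. In whole animals, fewer cells of a type and less RNA per cell cannot be told apart.

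The deposited descriptions name a peptide ending in RF-amide for 15 of the 31 flp genes and for 0 of the 47 nlp genes. All 78 genes were found in the WBcel235 annotation. On the X chromosome lay 13 flp genes (41.9% of the family) and 13 nlp genes (27.7%), where 13.5% of all protein-coding rows lie. Their transcripts were short, with a median of 633 nt for flp (422 to 973 nt) and 572 nt for nlp (240 to 1668 nt). Several members were neighbours inside a gene on the opposite strand. These were flp-28, flp-3 and flp-2 (X:10087314 to 10095245) within W07E11.1, with which they share no exonic bases, and nlp-45, nlp-22, nlp-23 and nlp-2 (X:2337600 to 2344766) within T01B6.1. Another 13 members shared 5 to 88 exonic bases with a coding gene on the opposite strand. Whether the counting used strand is not given in the sources used here, so reads of those stretches cannot be assigned to a strand.

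Control replicate 3 differed from every other library. Over the 12912 tested genes its Spearman correlations with them were 0.784 to 0.866, against 0.901 to 0.978 among the others, and 16560 of its genes were above 0, against 18049 to 18208 elsewhere. Its level in log2(TPM + 1) lay a median of 0.80 below the mean of the other 5 libraries over all tested genes (-0.80), and longer transcripts were lower in it (Spearman rho of -0.547 with transcript length across genes, which are not independent replicates). The main results below are therefore given with and without that library. Over all tested genes the median log2 fold change was 0.35, or 0.05 when that library was left out, so members are also described relative to that median.

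The flp genes formed a graded series of levels without a dominant member. The highest was flp-1 (WBGene00001444, IV:9144705 to 9146128), which encodes peptides of the AVK interneurons that act on locomotion and, released from AIY neurons, on the antioxidant response of the intestine. It was at 44.27, 52.43 and 57.78 TPM across the control libraries against 62.26, 64.98 and 52.34 TPM under JM03. The groups overlapped, since the lowest JM03 library lay below 2 of the controls, and its log2 fold change was 0.22, or -0.04 with quantile normalization. Next came flp-14 and flp-22, with means over the 6 libraries of 51.5 and 51.3 TPM, then flp-24 with 48.3 and flp-28 with 37.4 TPM. The ranges of flp-1, flp-14, flp-22 and flp-24 overlapped, so their order is not resolved beyond the spread between libraries. These 5 genes held 42.0% of the summed flp level. Of the other members, flp-12, flp-5 and flp-11 had means of 32.8, 25.9 and 24.7 TPM, 12 members had means of 5 to 10 TPM, and the lowest was flp-23, at 0.937 TPM. No flp gene was listed at 0 in any library.

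**Figure D1:**
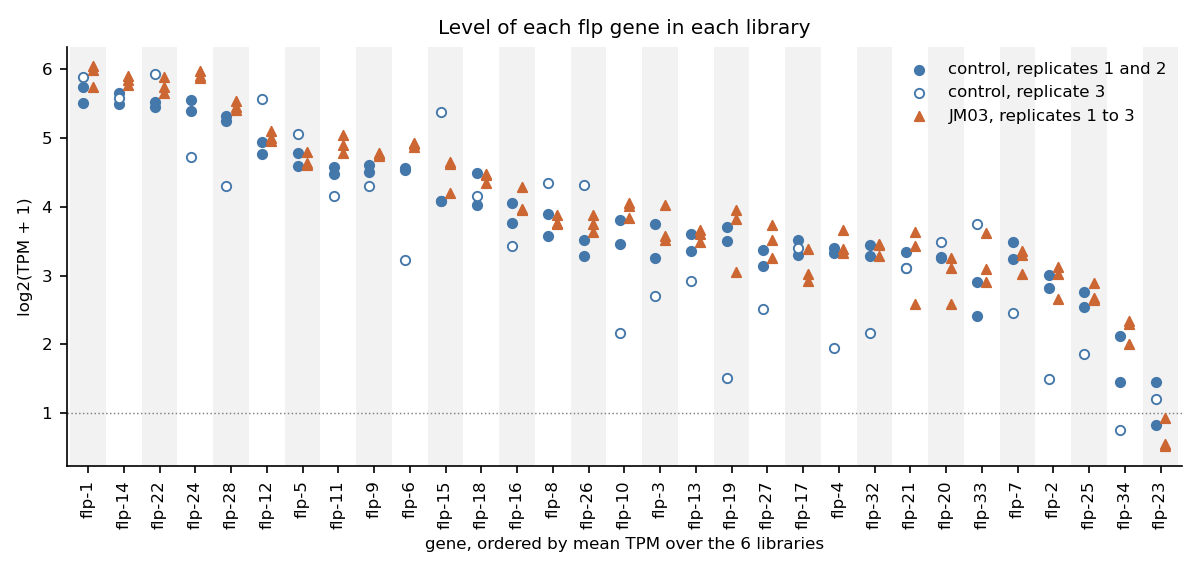
Level of the 31 flp genes as log2(TPM + 1) on the vertical axis, genes ordered by mean TPM. Circles are control libraries (open circle, control replicate 3), triangles are JM03 libraries, and the dotted line marks 1 TPM. Levels grade from flp-1, at 44.27 to 64.98 TPM, to flp-23, and the open circle is the lowest value for 17 of the 30 tested members.

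The nlp genes, in contrast to this gradient, were led by a pair of members. nlp-40 (WBGene00022276, I:11495 to 16837), whose peptide is released by the intestine to trigger the expulsion step of defecation, was at 336.84, 216.47 and 138.37 TPM across the control libraries against 438.83, 419.46 and 355.07 TPM under JM03. nlp-36 (WBGene00007185, III:9488731 to 9489186) was at 209.32, 176.17 and 164.0 TPM across the control libraries against 202.82, 213.95 and 181.33 TPM under JM03. nlp-40 was above nlp-36 in 5 libraries and below it in control replicate 3. Together they held 46.5% of the summed nlp level, and nlp-20, nlp-39 and nlp-24 followed with means of 91.5, 61.7 and 42.6 TPM. A further 15 members had means of 10 to 20 TPM and 11 had means of 5 to 10 TPM. nlp-36 shared 11 exonic bases with dars-1 on the opposite strand, which had a mean of 132.4 TPM.

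At the bottom of the order, nlp-22, which encodes a peptide of the RIA interneurons that promotes the sleep-like state of molting larvae, was listed at 0 in all 6 libraries. Its neighbour nlp-23, 301 bases away, was listed at 0 in 5 libraries and at 0.19 TPM in JM03 replicate 2. The other members of that cluster had low values too, with means of 4.29 TPM for nlp-2 and 1.53 TPM for nlp-45. An exact 0 in a table without counts can be a failed estimate. In the flp cluster on the same chromosome, flp-28, flp-3 and flp-2 had means of 37.4, 10.5 and 5.86 TPM, so close neighbours differed in level. Of the tested members nlp-46 had the highest coefficient of variation over the 5 libraries other than control replicate 3, 112.7%. It was at 0, 9.39 and 0 TPM across the control libraries against 0, 3.17 and 4.74 TPM under JM03, and shared 88 exonic bases with T28H10.1.

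**Figure D2:**
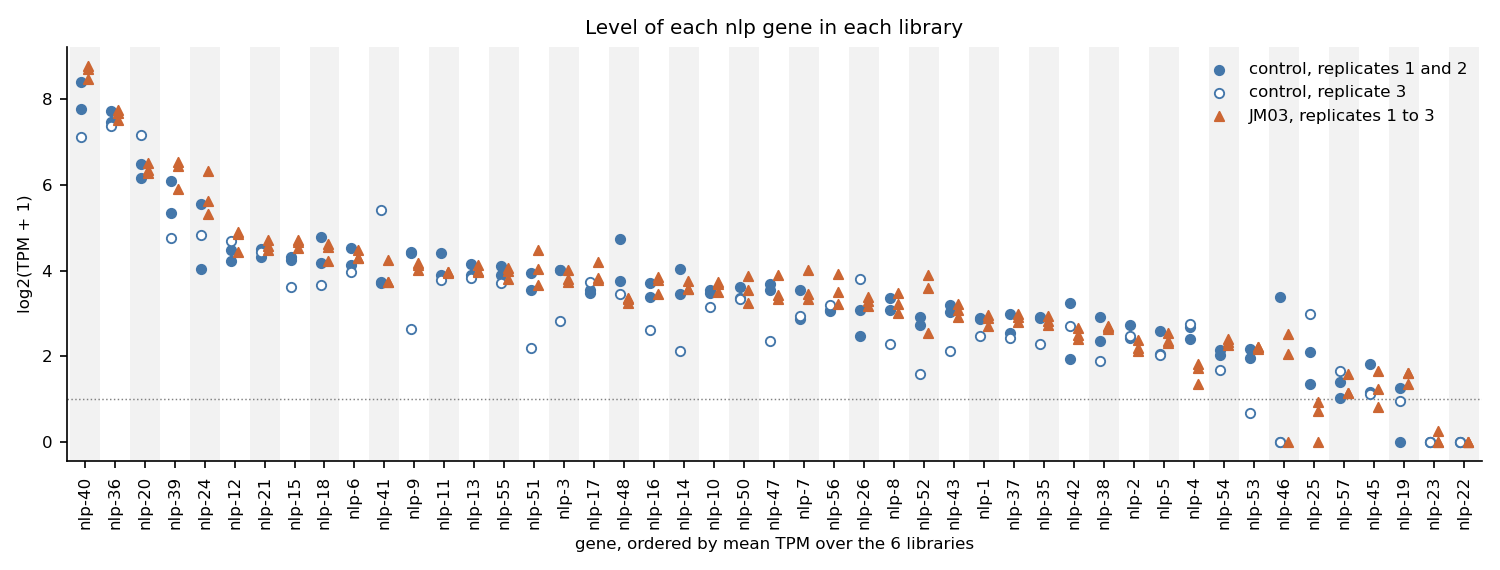
Level of the 47 nlp genes as log2(TPM + 1), ordered by mean TPM, with symbols as in the plot of flp levels. nlp-40 and nlp-36 lie above the rest, nlp-22 is listed at 0 throughout, and the dotted line marks 1 TPM.

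The comparison of JM03 with control asked whether the treated animals differed in any of these genes. A gene entered the test if it had at least 1 TPM in at least 3 libraries. This kept 30 flp and 45 nlp genes and left out flp-23, nlp-22 and nlp-23. nlp-25 passed through the control libraries alone. Each gene was compared on the log2(TPM + 1) scale with limma, fitted over all 12912 tested genes, and counted as called where its Benjamini-Hochberg adjusted p was under 0.05. Fold changes on this scale understate the change of low genes.

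None of the 30 flp and none of the 45 nlp genes passed limma's adjusted threshold, which 0.132% of all tested genes passed (0.0929% higher and 0.0387% lower in JM03). The smallest limma adjusted p was 0.46 among flp (flp-24) and 0.306 among nlp (nlp-4). At an unadjusted limma p below 0.05 there were 0 flp and 3 nlp genes, nlp-40 higher and nlp-4 and nlp-25 lower, beside 4.21% of tested genes higher and 7.54% lower. The direction of nlp-25 was fixed by the filter, which it passed through the controls alone, so its place in this count is a description. Standard errors of the log2 fold changes had a median of 0.335 for flp and 0.33 for nlp. The log2 fold changes themselves ran from -0.36 to 0.82 for flp and from -1.59 to 0.94 for nlp. Without control replicate 3 there was again no call, with 0.132% of tested genes called (0.0774% higher and 0.0542% lower) and a smallest limma adjusted p of 0.233 in both families. At an unadjusted limma p below 0.05 there were then 5 flp genes, all higher, and 6 nlp genes, 2 higher and 4 lower, beside 19.5% of tested genes, 8.41% higher and 11.1% lower. nlp-25 was again among the lower genes. The median standard errors were then 0.168 and 0.208. A p that misses the threshold does not show that these genes were alike in the groups.

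The summed flp level was 526.4, 549.0 and 515.8 TPM across the control libraries against 623.5, 640.1 and 632.3 TPM under JM03. The groups did not overlap, and the means, 530.4 ± 17 and 632.0 ± 8.29 TPM (SD, n = 3 each), gave a ratio of 1.19, which was 1.18 without control replicate 3. No test was made of a sum over chosen members. Quantile normalization forces all libraries to the same distribution. Sums after it cover the tested members only, without flp-23, and are normalized values and not the deposited TPM. Control replicate 3 then had the highest flp sum, at 893.7, and the ratio turned to 0.92. The remaining controls were then at 464.3 and 472.9 and JM03 at 556.9 to 570.0, a ratio of 1.20 without control replicate 3. Leaving out flp-1, the highest member, kept the ratio at 1.19.

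Gene by gene, 24 of the 30 tested flp genes were above 0 in log2 fold change (80.0%), beside 72.7% of all tested genes, with a median of 0.30 against 0.35 (relative median -0.05). Without control replicate 3, 25 were positive (83.3%), beside 56.5% of all tested genes, with a median of 0.18 against 0.05 (relative median 0.13). With quantile normalization of the 6 libraries 14 were positive (46.7%, beside 57.2% of all tested genes) and the median was -0.01 against 0.09 (relative median -0.11). All JM03 values lay above all control values for 7 flp genes (23.3%, beside 21.9% of all tested genes) and below them for flp-20 (3.33%, beside 9.41%). Without control replicate 3 these were 11 (36.7%, beside 23.7%) and again flp-20 (3.33%, beside 18.5%). Members share their libraries, so these shares count genes and not independent replicates.

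**Figure D3:**
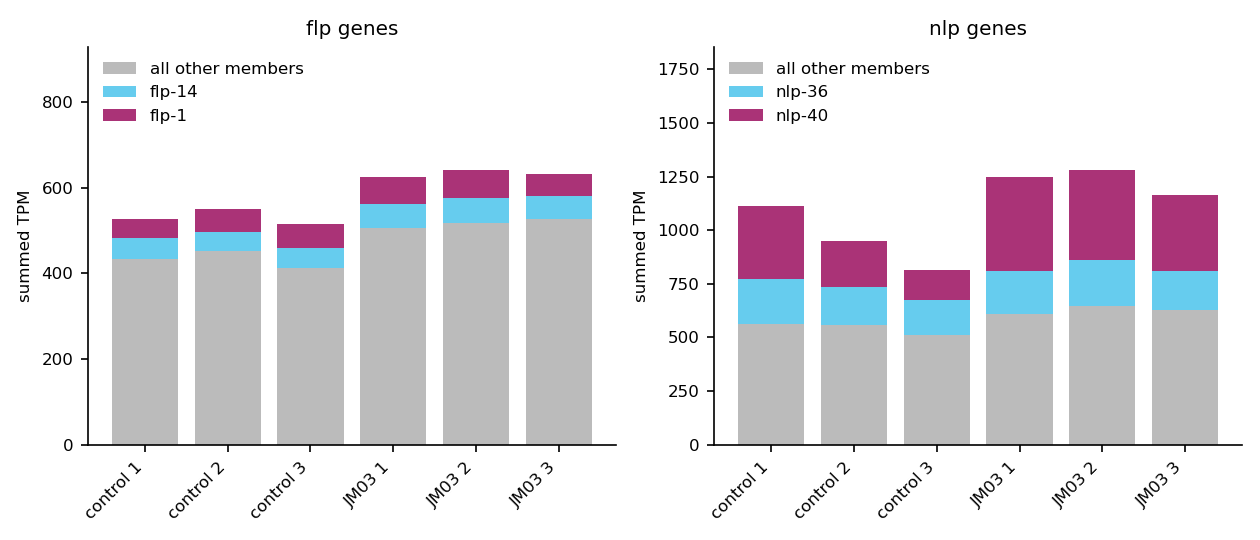
Summed TPM of the flp genes (left) and nlp genes (right) in each library, as bars from 0, with the highest 2 members of each family coloured. The flp sums are 515.8 to 549.0 TPM across the control libraries against 623.5 to 640.1 TPM under JM03. The nlp sums without nlp-40 are 675.9 to 773.9 TPM in the controls and 810.5 to 859.6 TPM in JM03.

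The flp genes with the smallest p were flp-24, flp-34 and flp-6. flp-24 (WBGene00016028, III:725119 to 726155), expressed in the ALA neuron where it promotes stress-induced sleep, was at 40.86, 45.71 and 25.37 TPM across the control libraries against 61.66, 58.57 and 57.71 TPM under JM03. All JM03 values were higher, and the log2 fold change was 0.70 ± 0.325 (SE, limma adjusted p = 0.46), or 0.45 ± 0.0807 without control replicate 3 (limma adjusted p = 0.233). flp-6 (V:9471975 to 9473792), a peptide of thermosensory circuits that supports lifespan in warm conditions, was at 22.10, 22.60 and 8.31 TPM across the control libraries against 29.37, 28.12 and 28.95 TPM under JM03. The JM03 libraries lay close together, all above the controls, with log2 fold changes of 0.79 and 0.35 with and without control replicate 3 (limma adjusted p = 0.482 and 0.233). flp-34 was at 3.35, 1.73 and 0.68 TPM across the control libraries against 3.90, 4.07 and 3.02 TPM under JM03, which overlapped (log2 fold change 0.77, limma adjusted p = 0.469, or 0.43 without control replicate 3).

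Among other flp genes that act on sleep, flp-11, the main sleep peptide of the RIS neuron, was at 22.76, 21.23 and 16.83 TPM across the control libraries against 26.58, 31.83 and 28.75 TPM under JM03. These values did not overlap, and the log2 fold change was 0.51, or 0.38 without control replicate 3 (limma adjusted p = 0.49 and 0.233). flp-13, another sleep peptide of ALA, overlapped between groups, at 6.55 to 11.10 TPM in control and 10.25 to 11.67 TPM in JM03 (log2 fold change 0.29, limma adjusted p = 0.551, or 0.11 without control replicate 3). flp-14 had 43.84 to 49.52 TPM in control and 53.77 to 58.42 TPM in JM03, without overlap (0.26, and 0.27 without control replicate 3, but -0.02 with quantile normalization). flp-10, which with flp-17 encodes ligands of the egg-laying receptor EGL-6, and flp-28 did not overlap either, with log2 fold changes of 0.82 and 0.51 that were 0.33 and 0.19 without control replicate 3. flp-9 was the remaining member without overlap (0.30 and 0.21), named here after its values were seen. Of these, the value of flp-14 was the least changed by leaving out that library.

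Other flp genes of known role overlapped between the groups. flp-2, released by the intestine in antioxidant signalling, was at 6.08, 7.06 and 1.81 TPM across the control libraries against 5.33, 7.73 and 7.16 TPM under JM03. Its log2 fold change was 0.50, and 0.02 without control replicate 3. flp-7, a peptide of ASI neurons that drives fat loss, had 0.16 and -0.14, and -0.04 with quantile normalization. The genes of the NPR-1 ligands flp-18 and flp-21, peptides that act on foraging and aggregation, had log2 fold changes of 0.21 and 0.03, turning to -0.15 and -0.22 with quantile normalization. flp-19, with 0.70 and the largest standard error of its family, 0.627, was at 1.86 TPM in control replicate 3 and at 7.27 to 14.43 TPM in the other 5 libraries, and its value was 0.00 without it.

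In the values as deposited, 6 of the 30 tested flp genes were below 0 in log2 fold change, and 16 with quantile normalization. flp-20 (X:9349276 to 9349894), a peptide of the touch receptor neurons, was at 8.55, 8.68 and 10.27 TPM across the control libraries against 7.66, 8.52 and 5.01 TPM under JM03. The gap between the groups was small, 8.52 against 8.55 TPM, and the log2 fold change was -0.36 ± 0.302 (SE, limma adjusted p = 0.507), or -0.16 without JM03 replicate 3. flp-17, expressed in the BAG neurons that sense carbon dioxide, had -0.30 with and without control replicate 3 (limma adjusted p = 0.528 and 0.414), at 8.87 to 10.48 TPM in control and 6.56 to 9.41 TPM in JM03. flp-8, flp-12 and flp-5 had -0.14, -0.07 and -0.13. Control replicate 3 was their highest library, and without it the values were 0.06, 0.16 and -0.01. The difference of flp-17 was the same in both fits, and that of flp-8 and flp-12 changed sign.

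**Figure D4:**
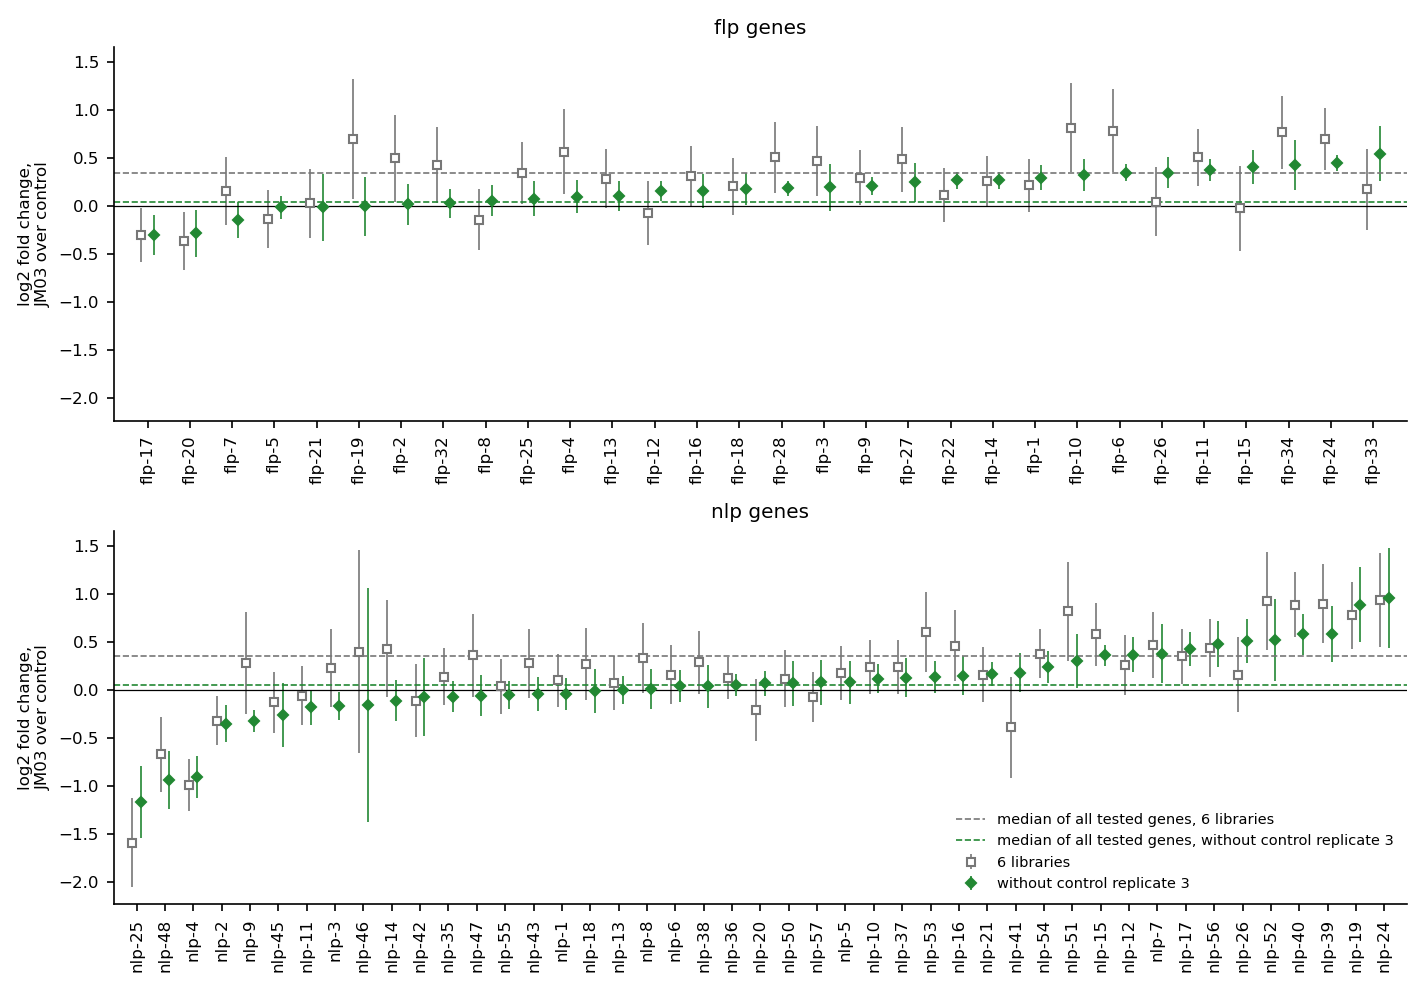
log2 fold change of JM03 over control, on log2(TPM + 1), for the 30 flp and 45 nlp genes tested, with 1 standard error. Squares use the 6 libraries and diamonds leave out control replicate 3, and dashed lines are the medians of all tested genes (0.35 and 0.05). Most flp diamonds lie above 0, and nlp-25, nlp-48 and nlp-4 are the lowest nlp genes in both fits.

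Of the 45 tested nlp genes 35 were above 0 in log2 fold change (77.8%, beside 72.7% of all tested genes), with a median of 0.24 (relative median -0.11). Without control replicate 3, 27 were positive (60.0%, beside 56.5%), with a median of 0.07 (relative median 0.02), and with quantile normalization of the 6 libraries 21 were positive (46.7%, beside 57.2%). The groups did not overlap for 7 nlp genes higher in JM03 (15.6%, beside 21.9% of all tested genes) and 4 lower (8.89%, beside 9.41%), which became 8 (17.8%, beside 23.7%) and 5 (11.1%, beside 18.5%) without control replicate 3. These shares were near or below those of all tested genes. nlp-25 is in both counts of lower genes, where its lack of overlap was fixed by passing the filter through the controls alone.

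The summed nlp level was 1110.7, 950.5 and 814.2 TPM across the control libraries against 1249.4, 1279.0 and 1165.6 TPM under JM03. The ratio of the means, 958.5 ± 148.4 and 1231.3 ± 58.8 TPM (SD, n = 3 each), was 1.28, or 1.19 without control replicate 3. nlp-40 made a large part of this difference: without it the sums were 675.9 to 773.9 TPM and 810.5 to 859.6 TPM, a ratio of 1.14. With quantile normalization, summed over the tested members, the ratio was 1.08 and the groups overlapped, with control replicate 3 highest at 1245.6. The remaining controls were then at 1040.0 and 876.3 and JM03 at 1073.5 to 1191.0, a ratio of 1.19 without control replicate 3. These are normalized values and not the deposited TPM.

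nlp-40 itself had a mean of 230.6 TPM in control and of 404.5 TPM in JM03. All JM03 values were higher, and the log2 fold change was 0.89 ± 0.341 (SE, limma adjusted p = 0.379), or 0.58 ± 0.211 without control replicate 3 (limma adjusted p = 0.241). The median of the intestine markers fell in the same order among the controls, as did medians for some other tissues. Single markers differed: mtl-2, cpr-1, vit-6 and erm-1 did not fall in it, and mtl-2 was highest in control replicate 3 (142.53, 103.44 and 231.16 TPM). As deviations from the mean of the 5 libraries other than control replicate 3, nlp-40 was at -0.03, -0.66 and -1.30 in control replicates 1 to 3, and the median of the 14 intestine markers was at 0.13, -0.43 and -1.18. In JM03 nlp-40 was at 0.35, 0.29 and 0.05 and the markers were at 0.24, -0.02 and 0.06. Summed over the list, the markers had 3376.0 to 7789.9 TPM in control and 6329.1 to 8335.1 TPM in JM03, with no marker at 0 in all libraries. Of the 14, 13 were positive, beside 72.7% of all tested genes, and none was called. With quantile normalization 11 were positive, beside 57.2%. Without control replicate 3, 13 were positive with a median of 0.23, beside 56.5% and 0.05. A further listed name, opt-2, was not matched. In control replicates 1 to 3 the medians were at 0.04, -0.71 and -1.36 for body wall muscle markers. They were at -0.06, -0.39 and -2.16 for oocyte and germ line markers. Sperm markers, at 0.36, 1.05 and 0.17, did not follow this order. All tested genes were at -0.01, -0.03 and -0.80. The part of intestinal RNA in the nlp-40 difference was not tested.

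Of the other high nlp genes, nlp-24, an opioid-like peptide that acts on feeding in starved animals, was at 46.31, 15.35 and 27.56 TPM across the control libraries against 38.94, 48.13 and 79.13 TPM under JM03 (log2 fold change 0.94 ± 0.487 SE, limma adjusted p = 0.474). The groups overlapped, and the value was 0.96 without control replicate 3, 0.55 without control replicate 2 and 0.66 without JM03 replicate 3. nlp-39 was at 67.54, 39.43 and 26.26 TPM across the control libraries against 91.84, 86.27 and 59.06 TPM under JM03, also with overlap (0.90, and 0.58 without control replicate 3). nlp-20 was at 88.15, 70.18 and 142.47 TPM across the control libraries against 77.14 to 91.03 TPM under JM03, and its log2 fold change of -0.21 became 0.07 without control replicate 3. nlp-15, an orcokinin-like precursor, did not overlap, at 11.35 to 18.84 TPM in control and 22.01 to 25.37 TPM in JM03 (0.58, and 0.36 without that library, limma adjusted p = 0.487 and 0.233). nlp-52 was at 2.01 to 6.59 TPM in control and 4.79 to 13.98 TPM in JM03 (0.93, limma adjusted p = 0.483), which became 0.52 without control replicate 3 and ran from 0.65 to 1.33 when a JM03 library was left out.

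Of the nlp genes with values below control, nlp-4 (WBGene00003742, I:10517321 to 10518055) had the smallest p. It was at 4.31, 5.41 and 5.79 TPM across the control libraries against 1.55, 2.51 and 2.31 TPM under JM03. The groups were well apart, and its log2 fold change was -0.99 ± 0.266 (SE, limma adjusted p = 0.306), or -0.91 ± 0.22 without control replicate 3 (limma adjusted p = 0.233). nlp-25 (WBGene00003763, V:19606180 to 19608419) was at 3.30, 1.55 and 6.99 TPM across the control libraries against 0.66, 0.92 and 0 TPM under JM03. Having passed the filter through the controls, it had to differ, and its log2 fold change of -1.59 ± 0.465 (limma adjusted p = 0.306) is given as a description. nlp-48 (III:9400531 to 9401136), which lies inside rgr-1 on the other strand, was at 12.60, 25.64 and 9.99 TPM across the control libraries against 9.04, 9.29 and 8.47 TPM under JM03. Its JM03 libraries were close to each other and to control replicate 3, and control replicate 2 was far above (-0.67 and -0.94 with and without control replicate 3, limma adjusted p = 0.49 and 0.233). Without control replicate 2 the value was -0.30. nlp-2, named here after its values were seen, was also lower without overlap (-0.32, limma adjusted p = 0.5). Neighbours did not share the direction of nlp-25: nlp-26, 5041 bases away, had 0.16, and 0.51 without control replicate 3.

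Sperm markers also had lower values in JM03. The 13 sperm markers summed to 687.0 to 1281.4 TPM in control and 269.8 to 456.2 TPM in JM03. A large part of these sums came from ssp-9, at 249.77 to 634.07 TPM in control and 101.85 to 135.09 TPM in JM03. The same held for ssp-10, at 142.5 to 395.44 TPM and 51.6 to 85.99 TPM. Of the 12 tested, 11 were negative, also with quantile normalization, none was called, and none of the 13 was at 0 in all libraries. Of all tested genes 72.7% were positive. Without control replicate 3, 0 of the sperm markers were positive, with a median of -1.19, beside 56.5% and 0.05 for all tested genes. The part of sperm RNA in the values of nlp-4, nlp-25 and nlp-48 was not tested.

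Among nlp genes of known role, nlp-3, released by the egg-laying HSN neurons, was at 15.19, 15.24 and 6.12 TPM across the control libraries against 12.25 to 15.21 TPM under JM03 (0.23, but -0.17 without control replicate 3 and -0.02 with quantile normalization). nlp-7, which also acts on egg laying, was at 6.36 to 10.67 TPM and 9.04 to 15.16 TPM (0.47, 0.38 without control replicate 3 and 0.26 without JM03 replicate 3), with overlap. nlp-12, a cholecystokinin-like peptide of the stretch-sensing DVA neuron, was at 17.70, 21.52 and 25.03 TPM across the control libraries against 28.77, 20.78 and 28.01 TPM under JM03 (0.26, 0.37 without control replicate 3 and -0.09 with quantile normalization, limma adjusted p = 0.604, 0.306 and 0.915). nlp-8, which with flp-13 and flp-24 is a sleep peptide of ALA, and the orcokinin-like nlp-14 had 0.33 and 0.43, and 0.01 and -0.11 without control replicate 3. nlp-47, which encodes the relative of gonadotropin-releasing and adipokinetic hormones, had 0.36 and -0.06. Of these 3 ALA genes, flp-24 was the member whose groups did not overlap.

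Members differed in how control replicate 3 ranked. It was the lowest library for 17 of 30 flp genes (56.7%) and 26 of 45 nlp genes (57.8%), beside 65.0% of all tested genes. It was the highest for 8 flp (26.7%) and 6 nlp genes (13.3%), beside 11.8%. The 14 members that were highest there had a median transcript length of 499.5 nt, and the 43 that were lowest 641 nt. The 18 in between had 460.5 nt, so these medians did not grade with rank. In that library the Spearman rho of deviation with transcript length was -0.306 for flp and -0.0936 for nlp, beside -0.547 for all tested genes. flp-15 was at 40.58 TPM in control replicate 3 and at 15.94 to 24.22 TPM elsewhere, and is named here after its values were seen. nlp-41 was at 41.93 TPM there and at 12.03 to 17.91 TPM elsewhere. nlp-41 had -0.39, and 0.18 without that library. Among the other 5 libraries the coefficient of variation had a median of 14.2% for flp (6.94% to 35.4%) and 18.1% for nlp (6.34% to 112.7%), beside 17.1% for all tested genes and 13.2% for those with means of 5 to 100 TPM.

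The genes that make and release the peptides gave no call either. All 13 genes of peptide processing and turnover were tested. Each was above 0 in log2 fold change, with a median of 0.53, beside 72.7% of all tested genes and a median of 0.35. Without control replicate 3, 10 were positive with a median of 0.05, beside 56.5% of all tested genes and 0.05. With quantile normalization 10 were positive with a median of 0.32, beside 57.2% of all tested genes and 0.09. These values of all tested genes also stand beside the other lists. egl-3, the proprotein convertase, was at 19.82, 23.32 and 3.99 TPM across the control libraries against 21.93 to 22.42 TPM under JM03. egl-21, the carboxypeptidase, was at 29.61, 33.04 and 6.22 TPM and at 33.42 to 35.23 TPM (limma adjusted p = 0.5 and 0.492). Control replicate 3 was far below the other libraries for both, and the log2 fold changes of 0.77 and 0.84 were 0.05 and 0.12 without it. The members of smallest p were nep-2, a neprilysin that degrades peptides, aex-5 and cpd-2 (0.76, 0.53 and 0.48, limma adjusted p = 0.49 each, and 0.21, 0.26 and 0.15 without control replicate 3). Of 12 genes of dense core vesicle formation and release, 11 were tested and all were positive, with a median of 0.60, and 9 were positive with a median of 0.05 without control replicate 3, and 8 with quantile normalization. hid-1, cccp-1 and eipr-1 had the smallest p (0.80, 0.52 and 0.80, limma adjusted p = 0.482, 0.49 and 0.49, and 0.37, 0.18 and 0.16 without control replicate 3).

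Receptors were far lower than their ligands. Of 97 neuropeptide receptor genes 20 were tested, 5 were listed at 0 in all libraries, and the whole list summed to 26.5 to 67.8 TPM in control and 70.9 to 73.1 TPM in JM03. Among the tested, 18 were positive with a median of 0.29, 13 with a median of 0.15 without control replicate 3 and 11 with quantile normalization, and none was called. npr-5, a receptor of the flp-18 peptides, was at 0.89, 0.69 and 0.52 TPM across the control libraries against 1.58, 1.27 and 1.21 TPM under JM03. It passed the filter through the JM03 libraries alone, so its groups could not overlap. Its log2 fold change of 0.47 (limma adjusted p = 0.422) is given as a description. dmsr-4 was at 0.38 to 1.41 TPM and 1.5 to 1.80 TPM, without overlap (0.62, limma adjusted p = 0.425). frpr-5 overlapped (0.64, limma adjusted p = 0.49, or 0.33 without control replicate 3). Of the other peptide ligands, pdf-1, which drives roaming, was at 17.49 to 23.75 TPM and 25.32 to 26.02 TPM (0.29, and 0.16 without control replicate 3). ntc-1, the vasopressin and oxytocin relative, was at 3.01, 5.05 and 5.64 TPM across the control libraries against 1.66, 2.23 and 3.23 TPM under JM03, with overlap (-0.72, limma adjusted p = 0.442). snet-1 and capa-1 had 0.59 and 0.64, and -0.04 and 0.17 without control replicate 3. pdf-1 was named after its values were seen.

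The 18 pan-neuronal markers summed to 232.0 to 480.8 TPM in control and 508.0 to 531.5 TPM in JM03, with none at 0 in all libraries. The largest part of these sums was snb-1, at 175.6 to 272.59 TPM in control and 291.2 to 314.43 TPM in JM03. Of 14 tested, 13 were positive with a median of 0.47, 10 with a median of 0.12 without control replicate 3 and 13 with quantile normalization, and none was called. unc-18, syd-2 and snt-1, all of synaptic release sites, had the smallest p (0.76, 0.87 and 0.48, limma adjusted p = 0.481, 0.481 and 0.486, and 0.34, 0.33 and 0.26 without control replicate 3). As deviations from the mean of the other 5 libraries, control replicate 3 had a median of -1.38 for the neuronal markers, -0.58 for flp and -0.40 for nlp. In control replicates 1 and 2 the marker medians were -0.05 and -0.04, against 0.06, 0.01 and 0.12 in JM03. Those of flp were -0.10 and -0.09 against 0.03, 0.11 and 0.11. Those of nlp were -0.09 and 0.02 against -0.02, 0.07 and 0.02. The part of a change in neuronal RNA as a whole in the flp difference was not tested. Of 13 genes of transmitter synthesis and transport 4 were tested, all positive and none called. Among them tbh-1 and tdc-1, which make octopamine and tyramine, had 1.27 and 0.92 (limma adjusted p = 0.416 and 0.432), and unc-25, which makes GABA, had 0.47 (limma adjusted p = 0.49). Without control replicate 3 these were 0.79, 0.52 and 0.25.

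**Figure D5:**
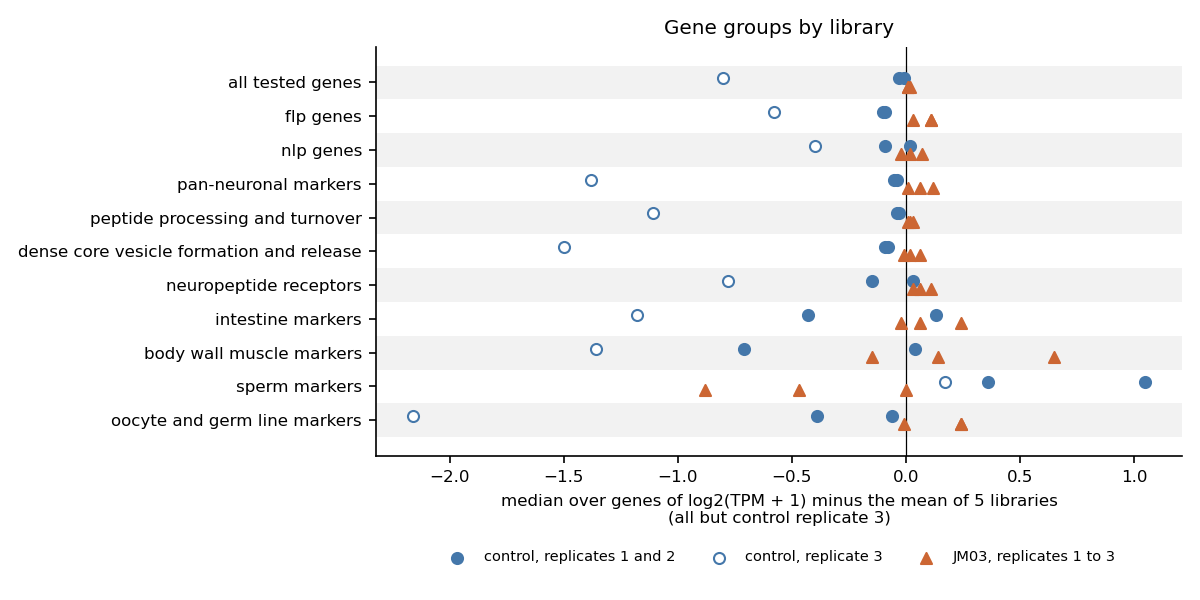
Median over genes of each group's deviation in log2(TPM + 1) from the mean of the 5 libraries other than control replicate 3, by library. Circles are controls (open circle, control replicate 3) and triangles are JM03. The open circle is at -0.80 for all tested genes, -0.58 for flp, -0.40 for nlp and -1.38 for pan-neuronal markers. The other libraries of the flp and nlp genes lie closer to 0, with the remaining flp controls at -0.10 and -0.09 and JM03 at 0.03 to 0.11.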

How the data were processed

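RNA-seq libraries of total RNA, 3 control and 3 JM03, were analysed. The authors deposited 1 table of TPM per gene and library. No header names the unit, which was inferred because each column totals 997816 to 998884. The submitters' processing notes list fastp, HISAT, RSEM and WBcel235. No version, setting or strandedness is given in the sources used here. Columns were matched to samples by name. Coordinates, gene type and transcript length came from the Ensembl 115 annotation of WBcel235. The unit does not retain depth.

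The scale was log2(TPM + 1), and genes with 1 TPM or more in 3 or more libraries were kept. limma 3.58.1 (R 4.3.3) was fitted unpaired with a trended, robust prior, and p-values were adjusted by Benjamini-Hochberg over the 12912 genes kept. The step was tested on simulated data, with changes given to genes with a mean of at least 3 on this scale. With the spread of the 6 libraries it recovered 0%, 28.4% and 68.2% of true log2 fold changes of 1, 2 and 4 in size. Without control replicate 3 it recovered 68.7%, 80.6% and 100%. Plots used matplotlib 3.10.9 (Python 3.11.15).

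The members, lists, tests and alternatives were chosen with earlier results of these data known. The rule named, per family, the 8 members of highest mean, the 3 largest log2 fold changes in each direction at a mean of at least 5 TPM, the 3 of smallest p, and members of known role. Of each other list, up to 3 members of smallest p were named. egl-3, egl-21, pdf-1, snb-1, flp-3, flp-23, nlp-23, nlp-26, nlp-45 and nlp-46 stand outside the rule, as do members said to be named after their values were seen. Other settings tried were quantile normalization, a filter at 5 TPM or none, a pseudocount of 0.1, a prior that was not robust, a block on replicate number, and leaving out every library in turn. Quantile-normalized sums were added after seeing the data.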

Additional observations from a re-analysis of the deposited data

How the results depend on the processing

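No flp or nlp gene was called in any of the 12 alternative fits. The smallest limma adjusted p was 0.186 for flp and 0.171 for nlp, both without control replicate 1. Over all genes 17 were called, and 5 to 17 with a library left out, with 8 in the absence of control replicate 2 and 5, 6 and 10 in that of JM03 replicates 1, 2 and 3. Fitting the replicate number as a block left 0 genes called by limma, with 476 higher and 1124 lower at an unadjusted p below 0.05. Correlations across genes between the deviations of same-numbered libraries from their group means were -0.0203, 0.0795 and -0.146. With 3 libraries per group they cannot show whether a number marks a shared culture or day, which the labels leave unsaid.

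The relative median of the flp genes, -0.05, was 0.16 with no filter and ran from -0.19 to 0.13 with a library left out. That of the nlp genes, -0.11, was 0.11 with no filter and ran from -0.25 to 0.02. With no filter the median of all genes was 0.13 in place of 0.35. The ratio of summed flp levels was 1.18 to 1.21 with a library left out and 0.92 after quantile normalization (1.20 without control replicate 3). That of nlp was 1.19 to 1.40 with a library left out, 1.14 without nlp-40 and 1.08 after quantile normalization (1.19 without control replicate 3).

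Of 38 named members tested, 16 changed sign in at least 1 alternative, with log2 fold changes that passed no threshold. With quantile normalization flp-1, flp-7, flp-14, flp-18, flp-21 and flp-22 had -0.04, -0.04, -0.02, -0.15, -0.22 and -0.14, and nlp-3, nlp-12, nlp-21 and nlp-36 had -0.02, -0.09, -0.19 and -0.04. With a library left out, flp-7 ran from -0.14 to 0.37, flp-8 from -0.32 to 0.06, flp-12 from -0.24 to 0.16 and flp-21 from -0.18 to 0.34. In the same way nlp-3 ran from -0.17 to 0.43, nlp-14 from -0.11 to 0.85, nlp-20 from -0.44 to 0.07, nlp-41 from -0.68 to 0.18 and nlp-47 from -0.06 to 0.61. The causes were not tested. TPM keeps no depth, so precision rests on the spread between libraries.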
